A study of Mus musculus with 30 samples.

Results

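Primary mouse microglia cultured for 2 h without amyloid-beta were compared with microglia at 0 h, in libraries labelled wild type (WT). The comparison takes in 6 of the 30 libraries of the series, 3 at 2 h and 3 at 0 h, chosen by their labels for genotype, time and treatment and by no measured value. Microglia, the macrophages that reside in the brain, were grown from mouse brains in primary culture and collected by shaking them off the culture; the amyloid-beta was given in conditioned medium. The other groups used below each hold 3 libraries: labelled PD-1 KO at 2 h and at 0 h without amyloid-beta, labelled WT at 2 h with amyloid-beta, and labelled WT at 8 h without it. The labels give neither age, sex nor strain, nor the medium of the cultures without amyloid-beta. Nor do they say whether each group of 3 came from separate animals. The p-values therefore take their error from the spread between libraries, which may be technical.

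Pdcd1, the gene targeted in the knockout, encodes the T cell checkpoint receptor PD-1. All 15 libraries with the PD-1 KO label had Pdcd1 values of 6.02 to 25.3, from 3 to 46 reads per library, and all 15 with the WT label had the lowest value possible, 1. This goes against the genotype labels, which do not say what part of the gene was deleted. The groups are therefore called by their labels, and "2 h" and "0 h" alone mean the libraries labelled WT without amyloid-beta.

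Several gene programmes that respond to culture conditions act on this time scale. Immediate early genes such as Fos are transcribed within minutes of growth factor, stress or adhesion signals, and most of their RNAs are short-lived. MAP kinase signals also induce their own inhibitors, the Spry and Dusp genes. Serum response factor and the YAP coactivator drive actin and matrix genes such as Cyr61 and Ctgf. NF-kB factors are held in the cytoplasm by inhibitor proteins until Toll-like or cytokine receptors signal, and then switch on cytokine genes together with the genes of those inhibitors. Homeostatic microglia carry a set of receptors, among them Cx3cr1 and P2ry12, whose RNAs are known to be low in culture.

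The deposited values, called normalised read counts here, are scaled gene counts of 13788 genes with 1 as their lowest value, the floor. Reads recovered from them came to 11004199, 48509985 and 10299399 in the 2 h libraries, against 7927720, 4989566 and 6297138 in the 0 h libraries, so 2 h replicate 2 was by far the deepest. Pearson correlations of log2 values across genes were 0.982 to 0.988 within 2 h, 0.98 to 0.983 within 0 h and 0.966 to 0.985 between the groups. Defining microglial markers were high in all 6 libraries, with the summed normalised read count of 14 pan-microglia and macrophage genes at 187300 to 218400 at 2 h and 144700 to 162100 at 0 h. Of 13 neutrophil, lymphocyte and red cell markers Cd4 was analysed, with 14.8, 17.4 and 14.7 at 2 h, against 10.5, 14.4 and 9.92 at 0 h, and the others are not analysed here.

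Of 13722 genes tested with limma, 652 (4.75%) passed an adjusted p of 0.05 (Benjamini-Hochberg), 356 of them higher at 2 h (2.59%) and 296 lower (2.16%). The median change of all genes was -0.00383 on the log2(value + 1) scale, on which every change below is given, as 2 h minus 0 h with its standard error. Changes of more than 2-fold numbered 67 among the increases and 103 among the decreases. The 2 h and 0 h libraries did not overlap in 2669 genes (19.5%), and in 605 of the 652 called. The test favours groups that do not overlap, so a lack of overlap in called genes is no separate support. The count depended on single libraries: 175 genes (1.28%), 114 higher (0.831%) and 61 lower (0.445%), also passed when each of the 6 libraries was left out in turn. Calls named below belong to these 175 unless a library is named beside them, each library being left out singly. When only the 6 libraries were fitted, with 3 against 3 to estimate the spread, 32 genes passed, 19 higher and 13 lower. Among them were Cx3cr1, Fcrls, Cd52, Nfkbiz, Nfkbia, Tnf, Ikbke, Tlr2, Icam1, Ptger4, Cxcl16, Fgd2 and Tmem176a, which rose, and Fosl2, Spry4, Rgs16, Cyr61, Ctgf, Hmga2 and Gclm, which fell.

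**Figure D1:**
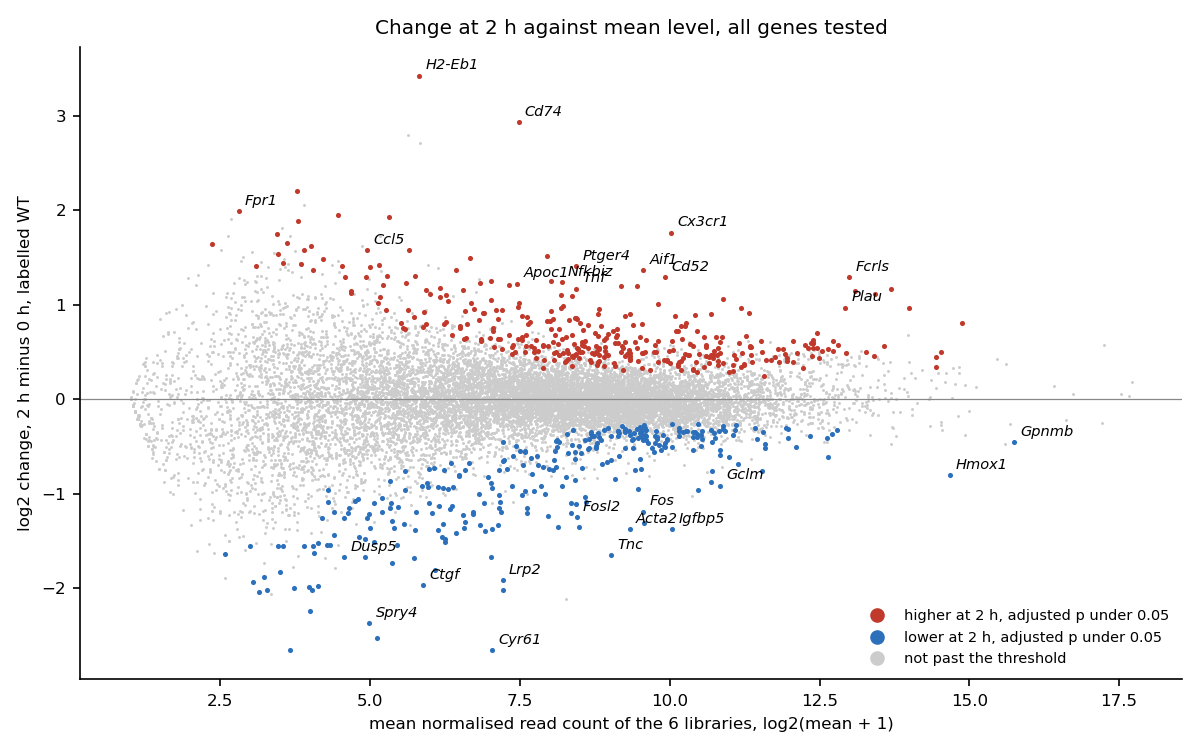
Each point is 1 of 13722 genes, with the mean normalised read count of the 6 libraries labelled WT on the x axis (log2) and the log2 change at 2 h minus 0 h on the y axis. Red points (356) are higher and blue points (296) lower at 2 h with an adjusted p under 0.05, grey points did not pass, and selected genes are named.

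Some receptors and secreted proteins typical of microglia rose at 2 h. The fractalkine receptor gene Cx3cr1 (chromosome 9, 119901616 to 120069879, GRCm38) had normalised read counts of 1715, 1352 and 1728 at 2 h, against 622, 447 and 365 at 0 h. No 2 h library came near the highest 0 h library, and the log2 change was 1.76 ± 0.19 (limma, adjusted p = 1.57e-06), with means of 1598 ± 214 at 2 h and 478 ± 131 at 0 h (SD, n = 3 each). Fcrls, an Fc receptor-like gene characteristic of mouse microglia, stood at 10118, 12342 and 12334 at 2 h, against 5862, 4255 and 4199 at 0 h, a change of 1.29 ± 0.18 (limma, adjusted p = 6.67e-05). Gpr34, a lysophosphatidylserine receptor, had 887, 973 and 1058 at 2 h, against 561, 379 and 355 at 0 h and changed by 1.2 ± 0.22 (limma, adjusted p = 0.00161). In both genes 0 h replicate 1 was the highest of its group and still below every 2 h library. The 3 chains of C1q, the first component of the classical complement pathway, moved in parallel. C1qa had normalised read counts of 10438, 13245 and 12009.5 at 2 h, against 7204, 4706 and 4495 at 0 h, and its change of 1.15 ± 0.18 was close to those of C1qb (1.12 ± 0.18) and C1qc (1.17 ± 0.18). All 3 passed limma (adjusted p = 0.00027, 0.000306 and 0.00027), without overlap between the groups.

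Aif1, which encodes the calcium-binding protein Iba1 used to stain microglia, had 814, 1335 and 1104 at 2 h, against 535, 344 and 375 at 0 h, a change of 1.37 ± 0.19 (limma, adjusted p = 6.67e-05). Cd52, a small surface glycoprotein of leukocytes, stood at 1136, 1653 and 1362 at 2 h, against 641, 496 and 544 at 0 h, a change of 1.29 ± 0.17 (adjusted p = 2.47e-05). Csf1r, the receptor on which microglial survival depends, rose less: 11600.5, 11103 and 12045 at 2 h, against 8416, 8067 and 7977 at 0 h, a change of 0.51 ± 0.11 (adjusted p = 0.00899). Selplg, the P-selectin ligand, changed by 0.62 ± 0.13 (limma, adjusted p = 0.00443). P2ry12, the ADP receptor of resting microglia, was low throughout, with 111, 101 and 124 at 2 h, against 56.3, 75.9 and 66.1 at 0 h. Its change of 0.76 ± 0.20 passed limma (adjusted p = 0.0256), but not without 2 h replicate 2 or 3 or 0 h replicate 1 or 3 (adjusted p = 0.053 to 0.0886). Tmem119, another homeostatic marker, had 41.7, 40.3 and 56.9 at 2 h, against 21, 32.8 and 34.7 at 0 h and did not pass (change 0.65 ± 0.26, adjusted p = 0.16). Csf1r, Selplg and P2ry12 did not overlap between the groups, while Tmem119 showed a gap of the same direction with lower counts.

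Of 18 homeostatic microglia genes tested, 6 rose, 1 fell and 11 did not pass, with a median change of 0.398, against 2.59% of all genes that rose and 2.16% that fell. The gene that fell, Sparc, a matrix-binding glycoprotein, changed by -0.88 ± 0.24 (limma, adjusted p = 0.0324) and did not pass without 2 h replicate 1 or 2 or 0 h replicate 2 or 3 (adjusted p = 0.0566 to 0.197). Of 14 pan-microglia and macrophage markers, 5 rose and none fell, with a median of 0.345: Aif1, Csf1r and the 3 C1q genes. The other 9, among them Cd68, Itgam, Spi1, Tyrobp and Ptprc, changed by -0.18 to 0.40 without passing. In bulk RNA, a larger share of microglia and more RNA of a gene per microglial cell cannot be told apart. Markers of other brain cells had negative medians, and none was called: -0.232 over 9 astrocyte genes, -0.334 over 11 oligodendrocyte genes and -0.211 over 8 neuron genes. At an unadjusted p under 0.05 (limma) stood 3, 5 and 2 of them, and voom called 1 oligodendrocyte gene lower. These medians rested on single libraries. The astrocyte median was 0.000353 without 0 h replicate 2, -0.115 without 2 h replicate 2, -0.373 without 2 h replicate 1 and -0.448 without 0 h replicate 3. That of neuron genes was -0.0566 without 2 h replicate 2 and -0.118 without 0 h replicate 1, and that of oligodendrocyte genes was -0.21 without 0 h replicate 2. Without 0 h replicate 1, 2 oligodendrocyte genes were called lower. Their part in the rise of the microglial genes was not tested.

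**Figure D2:**
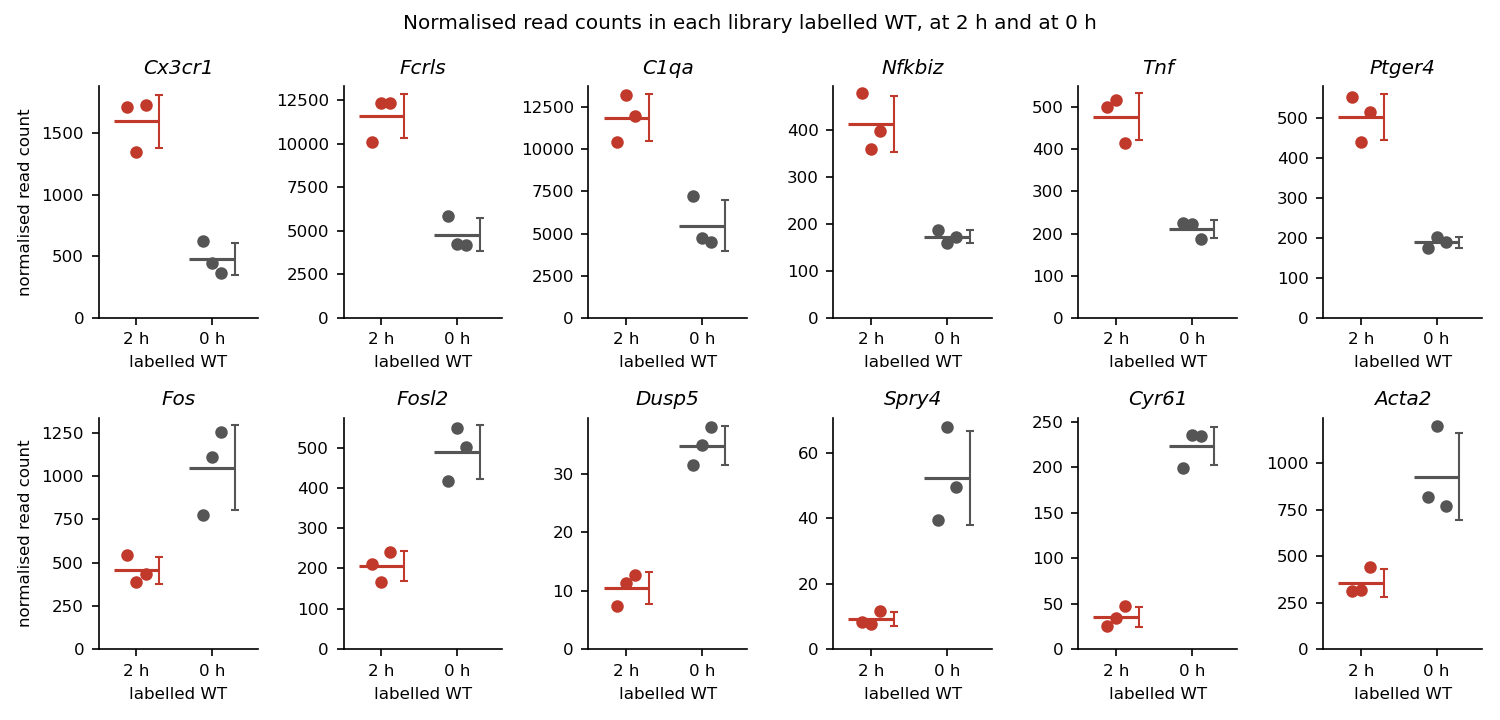
Normalised read counts of 12 genes in the libraries labelled WT, 2 h in red on the left and 0 h in grey on the right of each panel. Points are libraries (replicates 1 to 3 from left to right), horizontal lines are means and error bars are SD (n = 3). In each of the 12 genes the 2 groups do not overlap, higher at 2 h in the top row and lower in the bottom row.

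Genes of the NF-kB pathway rose together with some of the cytokines they control. Of 20 NF-kB subunits and feedback inhibitors, 7 rose and none fell (median 0.336, with 19 of 20 above 0), against the 2.59% of all genes that rose. Nfkbiz, an inducible nuclear cofactor of NF-kB, had normalised read counts of 478, 360.3 and 398 at 2 h, against 186, 159.9 and 172 at 0 h and changed by 1.24 ± 0.15 (limma, adjusted p = 7.03e-06). Nfkbia, which encodes the inhibitor that holds NF-kB in the cytoplasm, had 669.6, 741 and 677 at 2 h, against 436, 394 and 416 at 0 h, a change of 0.74 ± 0.11 (adjusted p = 0.000227). Both genes were higher in all 3 libraries at 2 h than in any at 0 h. Zc3h12a, an RNase that degrades cytokine RNAs, changed by 0.88 ± 0.15, the subunit gene Relb by 0.67 ± 0.12 and the cofactor gene Bcl3 by 0.92 ± 0.21 (limma, adjusted p = 0.000968, 0.000936 and 0.00847). Bcl3 did not pass with voom on the recovered reads (adjusted p = 0.0861). The remaining 2 members called, Tnip2 (0.61 ± 0.12, adjusted p = 0.00362) and the inhibitor gene Nfkbie (0.48 ± 0.14, adjusted p = 0.0456), depended on libraries. Tnip2 did not pass without 2 h replicate 2 (adjusted p = 0.0506), nor Nfkbie without any 1 of the 6 libraries (adjusted p = 0.0526 to 0.137). Tnfaip3, the deubiquitinase A20, missed the threshold (0.45 ± 0.14, limma, adjusted p = 0.0531).

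Ikbke, a kinase of the NF-kB and interferon pathways, stood at 415, 409.6 and 362 at 2 h, against 159.9, 215 and 177 at 0 h, a change of 1.11 ± 0.15 (limma, adjusted p = 4.06e-05). Ptger4, a receptor for prostaglandin E2, had the smallest adjusted p of all genes tested: 555, 441 and 516 at 2 h, against 174, 203 and 188 at 0 h, a change of 1.41 ± 0.12 (limma, adjusted p = 3.04e-08). Icam1, the adhesion ligand of leukocyte integrins, had 449, 465 and 436 at 2 h, against 242, 244 and 258 at 0 h and changed by 0.86 ± 0.11 (limma, adjusted p = 3.43e-05). For these 3 genes the lowest 2 h library lay well above the highest 0 h library. Toll-like receptor 2, encoded by Tlr2, had 581, 565 and 585 at 2 h, against 332, 295 and 301 at 0 h, a change of 0.90 ± 0.10 (limma, adjusted p = 3.49e-06). Of 20 Toll-like receptor and adaptor genes 3 rose (Tlr2, Tlr9 and Tlr1), 1 fell (Ticam2) against 2.59% and 2.16% of all genes, and the median was 0.0365, which turned to -0.00657 with voom on the recovered reads and to -0.0281 with the length trend removed. Tlr9, a receptor for bacterial DNA (0.94 ± 0.24, adjusted p = 0.0185), did not pass without 2 h replicate 1 or 3 or 0 h replicate 2 (adjusted p = 0.0675 to 0.0802). Tlr1, the partner of Tlr2 (0.62 ± 0.17, adjusted p = 0.0295), did not pass without 2 h replicate 1 or 2 or 0 h replicate 2 or 3 (adjusted p = 0.0758 to 0.219), nor the adaptor gene Ticam2 (-0.38 ± 0.11, adjusted p = 0.0343) without 2 h replicate 1 or 2 or 0 h replicate 2 or 3 (adjusted p = 0.056 to 0.195).

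Of 19 inflammatory cytokines and chemokines in the file, 6 rose, 1 fell and 12 did not pass (median 0.395), against 2.59% of all genes that rose and 2.16% that fell. With voom on the recovered reads, 3 rose. Tnf, the inflammatory cytokine, had normalised read counts of 501, 519 and 415 at 2 h, against 224, 224 and 187 at 0 h, a change of 1.17 ± 0.15 (limma, adjusted p = 1.64e-05). Cxcl16, a membrane-bound chemokine, had 1039.6, 1318 and 1235 at 2 h, against 674, 554 and 555 at 0 h and changed by 1.01 ± 0.15 (adjusted p = 9.39e-05). Ccl5, a T cell chemokine, was low, with 47.3, 49.3 and 39 at 2 h, against 15.7, 16.4 and 11.6 at 0 h, a change of 1.58 ± 0.34 (limma, adjusted p = 0.00519; 0.0562 with voom). None of these 3 overlapped between the groups. The neutrophil chemokine gene Cxcl2 had 30.6, 60.6 and 34.8 at 2 h, against 15.7, 24.6 and 9.92 at 0 h and changed by 1.30 ± 0.33 (limma, adjusted p = 0.0185). It did not pass without 2 h replicate 2 or 0 h replicate 3 (adjusted p = 0.157) or with voom (adjusted p = 0.187). Il1a, the interleukin-1 alpha gene, changed by 1.13 ± 0.32 (limma, adjusted p = 0.0392) and did not pass without 2 h replicate 2 or 3 or 0 h replicate 1, 2 or 3 (adjusted p = 0.0571 to 0.19). Ccl9, a macrophage chemokine, changed by 0.53 ± 0.12 (limma, adjusted p = 0.0066), and did not pass without 0 h replicate 2 (adjusted p = 0.0548). Csf1, the growth factor that binds Csf1r, was the member that fell, with 232, 226 and 271 at 2 h, against 376, 504 and 438 at 0 h, a change of -0.85 ± 0.16 (limma, adjusted p = 0.00182).

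Other cytokine genes at the centre of inflammation did not pass. Il1b, encoding interleukin-1 beta, had 30.6, 12.8 and 13.7 at 2 h, against 19.7, 8.20 and 9.92 at 0 h (0.54 ± 0.33, limma, adjusted p = 0.39), with overlap between the groups. The monocyte chemokine gene Ccl2 had 17.6, 14 and 33.7 at 2 h, against 41.9, 26.7 and 31.4 at 0 h (-0.66 ± 0.49, adjusted p = 0.494). Ccl3 and Ccl4, which encode the macrophage inflammatory chemokines, changed by 0.45 ± 0.15 and 0.56 ± 0.23 (limma, adjusted p = 0.0707 and 0.171), and Cxcl10, an interferon-induced chemokine, by 0.06 ± 0.26 (adjusted p = 0.935). In Ccl3 and Ccl4, 0 h replicate 1 lay among the 2 h libraries, and Cxcl10 was under 25 in all 6.

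Among 20 adhesion and inflammation surface genes, 7 rose and 2 fell (median 0.361), against the same shares of all genes. The number that rose was 4 without 2 h replicate 2 or 0 h replicate 2, and 4 with voom on the recovered reads. Besides Icam1, Tlr2 and Selplg they were Fpr1, Cd69, Cd40 and Cd83. Fpr1, the formyl peptide receptor, had 1 read in each library at 0 h, with normalised read counts of 9.27, 5.86 and 15.8 at 2 h, against 1.31, 2.05 and 1.65 at 0 h (limma, adjusted p = 0.00249; 0.188 with voom). Cd83 (0.56 ± 0.13, adjusted p = 0.0132), a surface protein of activated antigen-presenting cells, did not pass without 2 h replicate 2 or 0 h replicate 2 or 3 (adjusted p = 0.068 to 0.115). The early activation antigen gene Cd69 (1.75 ± 0.41, adjusted p = 0.0116) did not pass without 2 h replicate 2 or 0 h replicate 2 (adjusted p = 0.0654 to 0.154), where its change without 0 h replicate 2 was 1.13. The costimulatory receptor gene Cd40 (1.08 ± 0.28, adjusted p = 0.0241) did not pass without 2 h replicate 1 or 2 or 0 h replicate 2 or 3 (adjusted p = 0.0626 to 0.208). Of the genes that fell, the integrin ligand gene Vcam1 had 87.2, 70.3 and 105 at 2 h, against 162, 221 and 129 at 0 h and changed by -0.94 ± 0.22 (limma, adjusted p = 0.012). It did not pass without 2 h replicate 2 or 0 h replicate 2 (adjusted p = 0.0965 to 0.131). The hyaluronan receptor gene Cd44 changed by -0.47 ± 0.13 (adjusted p = 0.0256) and did not pass without 2 h replicate 2 or 0 h replicate 2 or 3 (adjusted p = 0.16 to 0.172).

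Promoter windows (250 bases before to 50 after each start site, RefSeq, GRCm38.p6) were searched on both strands for 7 motifs. The NF-kB consensus site was found in 39 of 347 windows of genes that rose (11.2%), 13 of 300 windows of genes that fell (4.33%) and 732 of 13763 windows of all genes tested (5.32%). The site TTGCATCA, read by C/EBP and ATF factors, was in 2.59% of the windows of genes that rose, 0.333% of those of genes that fell and 0.574% of all. The serum response element known as the CArG box was in 2.88%, 3% and 1.22%, in that order, and the AP-1 site TGANTCA in 6.92%, 9.33% and 5.28%. The E-box CACGTG was in 6.63%, 10.7% and 9.61%, the cyclic AMP element TGACGTCA in 2.88%, 1% and 2.97%, and the heat shock pair GAANNTTC in 8.07%, 6.33% and 5.70%. Windows of 1 gene can overlap, and motifs can overlap each other. A match is a description of the letters, not of binding.

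Of 22 genes that rose in the NF-kB, cytokine, surface and Toll-like lists, 14 had a window in the table and 6 of these held the NF-kB consensus. The windows of Tnf, Icam1, Zc3h12a, Tnip2, Il1a, Fpr1, Tlr1 and Tlr9 held no match. Windows of 4 of the 6 genes with a match are shown, 2 feedback inhibitors, a Toll-like receptor and a chemokine, with the matched bases in capitals. Nfkbia lies on the minus strand at chr12:55492598-55492897, with its match at position -29 from the start site. Nfkbie lies on the plus strand at chr17:45555450-45555749, with its match at -106. Tlr2 lies on the minus strand at chr3:83841559-83841858, with overlapping matches at -173 and -172 and another at -8. Cxcl2 lies on the plus strand at chr5:90903649-90903948, with overlapping matches at -97 and -96.
Nfkbia: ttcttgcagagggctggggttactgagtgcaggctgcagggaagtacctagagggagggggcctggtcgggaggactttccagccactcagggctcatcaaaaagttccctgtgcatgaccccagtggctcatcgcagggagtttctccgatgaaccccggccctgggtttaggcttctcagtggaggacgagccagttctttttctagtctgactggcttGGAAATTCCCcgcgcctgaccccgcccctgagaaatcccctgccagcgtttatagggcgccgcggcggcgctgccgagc
Nfkbie: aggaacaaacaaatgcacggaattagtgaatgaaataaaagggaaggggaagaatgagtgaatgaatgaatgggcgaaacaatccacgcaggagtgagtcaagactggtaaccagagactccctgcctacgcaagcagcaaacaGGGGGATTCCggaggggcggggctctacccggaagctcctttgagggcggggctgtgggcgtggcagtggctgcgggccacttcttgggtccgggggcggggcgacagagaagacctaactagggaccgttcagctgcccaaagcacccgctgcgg
Tlr2: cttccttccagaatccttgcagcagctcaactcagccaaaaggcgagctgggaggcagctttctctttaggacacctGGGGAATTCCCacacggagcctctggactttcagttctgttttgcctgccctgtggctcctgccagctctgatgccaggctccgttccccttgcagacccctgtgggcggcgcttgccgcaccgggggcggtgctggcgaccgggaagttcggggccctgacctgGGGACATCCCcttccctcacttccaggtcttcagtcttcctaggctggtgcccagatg
Cxcl2: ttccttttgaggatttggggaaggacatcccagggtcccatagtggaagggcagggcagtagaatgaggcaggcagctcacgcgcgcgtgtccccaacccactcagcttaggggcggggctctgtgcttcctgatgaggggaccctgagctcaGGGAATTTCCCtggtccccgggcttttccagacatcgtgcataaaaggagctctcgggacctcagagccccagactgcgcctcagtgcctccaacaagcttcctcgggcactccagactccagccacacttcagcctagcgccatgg

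Immediate early genes were called in both directions. Of 27 tested, 6 fell, 2 rose and 19 did not pass (median -0.151), against 2.16% of all genes that fell and 2.59% that rose. Fos (chromosome 12, 85473890 to 85477273, GRCm38), a subunit of the AP-1 transcription factor, had normalised read counts of 543, 388 and 432 at 2 h, against 777, 1109 and 1254 at 0 h, a change of -1.19 ± 0.15 (limma, adjusted p = 2.42e-05). The related Fosl2 had 212, 168 and 241 at 2 h, against 417, 548 and 502 at 0 h and changed by -1.24 ± 0.14 (adjusted p = 4.54e-06). Every 2 h library was below every 0 h library in both. Dusp5, a nuclear phosphatase of ERK, stood at 7.42, 11.3 and 12.6 at 2 h, against 31.4, 34.9 and 38 at 0 h, a change of -1.67 ± 0.27 (limma, adjusted p = 0.000433). The orphan nuclear receptor gene Nr4a1 had 68.6, 35.2 and 20.01 at 2 h, against 94.3, 94.3 and 101 at 0 h, a change of -1.38 ± 0.31 (limma, adjusted p = 0.00881), and did not pass without 2 h replicate 3 (adjusted p = 0.0757). Dusp1, another MAP kinase phosphatase (-0.69 ± 0.16, adjusted p = 0.0114), did not pass without 2 h replicate 2 or 3 or 0 h replicate 2 or 3 (adjusted p = 0.0564 to 0.0903). The zinc finger gene Egr1 (-0.42 ± 0.11, adjusted p = 0.021) did not pass without 2 h replicate 2 or 3 or 0 h replicate 1 or 2 (adjusted p = 0.0557 to 0.08).

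The list was not uniform. Atf3, a stress-induced factor, was higher at 2 h, with 6156, 7429.9 and 6361 at 2 h, against 5265, 4768 and 4636 at 0 h. Its change of 0.44 ± 0.10 (limma, adjusted p = 0.00947) did not pass without 2 h replicate 2 or 0 h replicate 2 or 3 (adjusted p = 0.0584 to 0.0883). Egr2, a relative of Egr1, had 127, 130.2 and 113 at 2 h, against 85.2, 55.4 and 74.4 at 0 h. Its change of 0.79 ± 0.18 (limma, adjusted p = 0.00947) did not pass without 2 h replicate 2 or 0 h replicate 2 (adjusted p = 0.0545 to 0.111). Jun, the partner of Fos, had 1617, 1392 and 1287 at 2 h, against 1388, 1294 and 1228 at 0 h and did not pass (0.13 ± 0.10, limma, adjusted p = 0.534). Fosb had the largest positive change of the list, 1.36 ± 0.53, without passing (adjusted p = 0.143). The counts of the list moved with single libraries: the number that fell was 3 without 2 h replicate 3, and the number that rose 0 without 2 h replicate 2 or 0 h replicate 2 and 1 without 0 h replicate 3.

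Of 18 feedback genes of the MAP kinase pathway 6 fell, 1 rose and 11 did not pass (median -0.356), against the 2.16% of all genes that fell. Spry4, which blocks receptor tyrosine kinase signals to ERK, had 8.35, 7.66 and 11.6 at 2 h, against 39.3, 67.7 and 49.6 at 0 h, a change of -2.37 ± 0.35 (limma, adjusted p = 0.000171). Its relative Spry1 changed by -1.36 ± 0.31 (limma, adjusted p = 0.00947) but did not pass without 2 h replicate 2 or 0 h replicate 3 (adjusted p = 0.0753 to 0.0977). Spry2 changed by -0.75 ± 0.21 (adjusted p = 0.0323) but did not pass without 2 h replicate 1 or 3 or 0 h replicate 2 or 3 (adjusted p = 0.0778 to 0.158). Phlda1, a MAP kinase target of the pleckstrin homology family, had 33.4, 42.8 and 50.6 at 2 h, against 74.7, 86.1 and 79.3 at 0 h, a change of -0.92 ± 0.20 (limma, adjusted p = 0.00546). Rgs2, an inhibitor of G protein signals, was the member that rose: 3118, 3834 and 3683 at 2 h, against 2646, 2155 and 2145 at 0 h, a change of 0.62 ± 0.12 (limma, adjusted p = 0.00192). Its relative Rgs16, not on the list and named after its values were seen, changed by -2.53 ± 0.53 (adjusted p = 0.00453). The number of members that fell was 3 without 0 h replicate 3.

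Matricellular and contractile genes held some of the largest decreases. Of 22 serum response and actin cytoskeleton genes 4 fell and none rose (median -0.07), against 2.16% of all genes that fell. The median was -0.0045 without 2 h replicate 2, -0.137 without 2 h replicate 3 and -0.187 with quantile normalization, and the number that fell was 2 without 2 h replicate 2 or 0 h replicate 2. Other settings called members in both directions. Voom called 2 higher and 3 lower, array weights 4 higher and 5 lower, and quantile normalization 1 higher and 5 lower. Without 0 h replicate 1, 2 were higher and 4 lower. The summed normalised read count of the list was 129900 to 139300 at 2 h and 112500 to 123400 at 0 h. Cyr61 (chromosome 3, 145646976 to 145649981, GRCm38), a secreted YAP and serum response target, had normalised read counts of 25, 34.5 and 47.4 at 2 h, against 199, 236 and 235 at 0 h, a change of -2.66 ± 0.28 (limma, adjusted p = 1.65e-06). Ctgf, its close relative, had 18.5, 21.6 and 29.5 at 2 h, against 90.4, 111 and 77.7 at 0 h, a change of -1.97 ± 0.34 (adjusted p = 0.000751). At 2 h both were below 50 in all 3 libraries, and at 0 h above 75 in all 3. The smooth muscle genes Tagln (-1.11 ± 0.26, adjusted p = 0.0122) and Myl9 (-1.10 ± 0.31, adjusted p = 0.0392) also fell. Tagln did not pass without 2 h replicate 2 or 0 h replicate 2 (adjusted p = 0.0702 to 0.138), nor Myl9 without 2 h replicate 1, 2 or 3 or 0 h replicate 1 or 2 (adjusted p = 0.0676 to 0.229). Actb, which encodes the cytoplasmic actin that fills the cortex of every cell, did not pass and had a positive change (0.43 ± 0.13, limma, adjusted p = 0.0613).

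Further decreases were of several kinds, among them genes of secreted proteins, a contractile protein and intracellular regulators. Tnc, encoding the matrix glycoprotein tenascin C, had 359.8, 159 and 251 at 2 h, against 552, 1007 and 795 at 0 h, a change of -1.64 ± 0.30 (limma, adjusted p = 0.00113). Acta2, smooth muscle actin, had 312, 316 and 444 at 2 h, against 819, 1202 and 768 at 0 h, a change of -1.37 ± 0.24 (adjusted p = 0.000968). Igfbp5, which binds insulin-like growth factors, had 641, 422 and 678 at 2 h, against 1288, 2126 and 1158 at 0 h, a change of -1.37 ± 0.27 (adjusted p = 0.00274). In each of these the 2 h libraries lay below all 0 h libraries, by a narrower gap in Tnc. Igfbp3 (-1.09 ± 0.20), the kinase scaffold gene Akap12 (-1.35 ± 0.24), the guidance gene Flrt2 (-1.09 ± 0.16), the follistatin-like gene Fstl1 (-1.15 ± 0.22), Cytip (-1.35 ± 0.21), a regulator of leukocyte adhesion, and the chromatin factor gene Hmga2 (-1.23 ± 0.19) passed limma as well (adjusted p = 0.00151, 0.000998, 0.000132, 0.00244, 0.000254 and 0.000227). Thbs1, encoding thrombospondin 1, changed by -1.30 ± 0.31 (adjusted p = 0.0128) but did not pass without 2 h replicate 2 or 0 h replicate 2 or 3 (adjusted p = 0.0595 to 0.125). Likewise Mlc1 (-1.2 ± 0.33, adjusted p = 0.0327), known from astrocytes, did not pass without 2 h replicate 1 or 2 or 0 h replicate 2 (adjusted p = 0.0572 to 0.224). The Hippo pathway gene Wwc1 (-1.01 ± 0.25, adjusted p = 0.0151) did not pass without 2 h replicate 2 or 0 h replicate 2 (adjusted p = 0.0845 to 0.127).

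Some of these genes are known from cells other than microglia, and the markers of such cells were examined as lists. Ependymal and cilia markers had negative changes in 9 of 9 genes, a median of -0.857, and summed normalised read counts of 122 to 154 at 2 h and 162 to 411 at 0 h. None was called by limma or voom, and 2 had an unadjusted p under 0.05. The median was -0.479 without 0 h replicate 2 and -1.4 without 0 h replicate 3, where 1 gene was called lower. Foxj1, the regulator of motile cilia, had 68.6, 75 and 97.9 at 2 h, against 197, 229.7 and 112 at 0 h (-1.10 ± 0.35, limma, adjusted p = 0.0636). Astrocyte markers summed to 1575 to 2516 at 2 h and 2348 to 3867 at 0 h, with negative changes in 8 of 9 genes. The connexin gene Gja1 had 136, 75.5 and 107 at 2 h, against 198, 285 and 188 at 0 h (-1.08 ± 0.35, limma, adjusted p = 0.0736). The water channel gene Aqp4 changed by -0.83 ± 0.30 (adjusted p = 0.113) and Gfap by -0.20 ± 0.34 (adjusted p = 0.801). Fibroblast and vascular markers had a median of 0.0876, which turned to -0.225 with voom, -0.0953 without 2 h replicate 3 and -0.00756 without 2 h replicate 1 and was 0.0205 without 0 h replicate 3 and 0.257 without 2 h replicate 2, with 5 positive and 4 negative changes, and sums of 817 to 1196 at 2 h and 1334 to 1834 at 0 h. Of these 9 genes only Acta2 was called, and without its counts, given above, the sums of the groups overlapped. Of these markers, Tmem212 lay at the floor in all 3 libraries at 2 h and in 2 of 3 at 0 h, and Lum in 2 of 3 in each group. The part of these cells in the falls of matrix and contractile genes was not tested.

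Some genes controlled by NRF2, the factor that induces antioxidant enzymes, fell at 2 h. Of 18 tested, 4 fell, none rose and 14 did not pass (median -0.3, with 16 of 18 below 0), against 2.16% of all genes that fell. The number that fell was 2 without 2 h replicate 2 or 0 h replicate 2 and 7 without 0 h replicate 1, and 7 with voom or quantile normalization. Gclm, the modifier subunit of the enzyme that starts glutathione synthesis, had normalised read counts of 1272, 1224 and 1308 at 2 h, against 1982, 2669.8 and 2569.8 at 0 h, a change of -0.91 ± 0.11 (limma, adjusted p = 9.79e-06). Hmox1, which encodes heme oxygenase, was among the most abundant RNAs, with 19082, 18683 and 19170.1 at 2 h, against 30124, 33814 and 35703 at 0 h, a change of -0.80 ± 0.15 (limma, adjusted p = 0.00146). The 2 h values of both genes were tight and below all 0 h values. Me1, malic enzyme, changed by -0.72 ± 0.17 (adjusted p = 0.00995) but did not pass without 2 h replicate 2 or 0 h replicate 2 (adjusted p = 0.0701 to 0.109). The thioredoxin reductase gene Txnrd1 changed by -0.32 ± 0.08 (adjusted p = 0.0135) but did not pass without 2 h replicate 2 or 0 h replicate 2 or 3 (adjusted p = 0.0664 to 0.0798). Nqo1, a quinone reductase, and Slc7a11, the cystine transporter, had negative changes that did not pass (-0.82 ± 0.26 and -0.98 ± 0.30, limma, adjusted p = 0.0603 and 0.0537).

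Some sterol genes were called. Of 21 cholesterol synthesis and SREBP2 target genes, 4 fell, none rose and 17 did not pass (median -0.239), against 2.16% of all genes that fell. Of 13 LXR targets and efflux genes 4 rose, none fell and 9 did not pass (median 0.356), against 2.59% of all genes that rose. SREBP2 is the factor that raises cholesterol uptake and synthesis, and LXR the receptor that raises cholesterol export. Among the decreases, Idi1 (-0.60 ± 0.16, adjusted p = 0.0261), Msmo1 (-0.38 ± 0.11, adjusted p = 0.0413) and Sc5d (-0.43 ± 0.12, adjusted p = 0.0447), enzymes of sterol synthesis, depended on libraries (limma). Idi1 did not pass without 2 h replicate 2 or 3 or 0 h replicate 1 or 2 (adjusted p = 0.0757 to 0.144). Msmo1 did not pass without 2 h replicate 1, 2 or 3 or 0 h replicate 1 or 3 (adjusted p = 0.0713 to 0.152), nor Sc5d without 2 h replicate 2 or 3 or 0 h replicate 2 or 3 (adjusted p = 0.0916 to 0.201). Hmgcs1, which encodes an early enzyme of the pathway, had overlapping groups (1632, 1178 and 1403 at 2 h, against 1469, 1472 and 1406 at 0 h; -0.06 ± 0.10, limma, adjusted p = 0.814). The number of synthesis and uptake genes that fell was 1 without 2 h replicate 2 or 3 and 2 without 0 h replicate 1, 2 or 3.

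On the export side, Abcg1, which hands cholesterol to lipoproteins, had 1286, 1555 and 1454 at 2 h, against 987, 995 and 789.9 at 0 h, a change of 0.64 ± 0.13 (limma, adjusted p = 0.00317). Apoc1, a small apolipoprotein, had 203, 285 and 241 at 2 h, against 111, 73.8 and 131 at 0 h, a change of 1.23 ± 0.25 (adjusted p = 0.00377) that did not pass without 0 h replicate 2 (adjusted p = 0.054). Pltp, a phospholipid transfer protein (0.49 ± 0.11, adjusted p = 0.00784), did not pass without 2 h replicate 2 or 0 h replicate 2 (adjusted p = 0.0697 to 0.0847). Mylip, a ubiquitin ligase (0.36 ± 0.08, adjusted p = 0.0113), did not pass without 2 h replicate 3 or 0 h replicate 3 (adjusted p = 0.0558 to 0.0896). Abca1 (0.54 ± 0.19) and Apoe (0.58 ± 0.18) had positive changes that did not pass (limma, adjusted p = 0.0913 and 0.06). The number of export genes that rose was 2 without 0 h replicate 2.

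Of 29 interferon-induced genes 3 rose, none fell and 26 did not pass (median 0.442, 26 positive), against 2.59% of all genes that rose. The count depended on the setting: array weights called 17 higher, and the fit of the 6 libraries alone called none. At an unadjusted p under 0.05 (limma) stood 12 of the 29. Bst2, encoding tetherin, had 1316, 2230.3 and 1828 at 2 h, against 1191, 835 and 849 at 0 h, a change of 0.89 ± 0.18 (limma, adjusted p = 0.00381). Ifi27l2a had 278, 347 and 460.2 at 2 h, against 174, 121 and 89.2 at 0 h, a change of 1.51 ± 0.32 (adjusted p = 0.00458). Zbp1, a nucleic acid sensor, changed by 1.09 ± 0.32 (adjusted p = 0.0457) and did not pass without any 1 of the 6 libraries (adjusted p = 0.0519 to 0.21). Bst2 and Ifi27l2a did not overlap between the groups.

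MHC class II genes stood apart in 1 library. Cd74, the invariant chain that escorts class II molecules, had 828, 62.2 and 101 at 2 h, against 17, 36.9 and 16.5 at 0 h, a change of 2.93 ± 0.52 (limma, adjusted p = 0.000998; 0.246 with voom). Without 2 h replicate 1 the change was 1.81 (adjusted p = 0.0024). H2-Eb1, a class II beta chain whose relatives are close in sequence and which is uncertain for that reason, had 319, 2.70 and 7.37 at 2 h, against 1, 1 and 1 at 0 h (the floor), with limma's adjusted p of 0.0396. It did not pass without 2 h replicate 1 or 0 h replicate 1, 2 or 3 (adjusted p = 0.0544 to 0.234). The value of 2 h replicate 1 was many times those of replicates 2 and 3 in both genes. The same library stood apart for Hspa1a, a heat shock protein gene, which had 226, 33.6 and 35.8 at 2 h, against 30.1, 26.7 and 16.5 at 0 h and did not pass (1.42 ± 0.43, limma, adjusted p = 0.051). Of 11 MHC class II and costimulation genes, 3 rose (Cd74, H2-Eb1 and Cd40) and none fell (median 0.628), against 2.59% of all genes that rose. Voom called none of the 11 (median 0.367).

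Stress pathways were called to different degrees, from 4.35% of the integrated stress response genes to 18.8% of the unfolded protein response genes, against 4.75% of all genes. Chac1, a glutathione-degrading enzyme induced by ATF4, had 141, 117 and 152 at 2 h, against 69.4, 65.6 and 64.5 at 0 h, a change of 1.02 ± 0.18 (limma, adjusted p = 0.000821). It was the 1 gene called of 23 of the integrated stress response (median -0.0676). In 16 unfolded protein response genes 1 rose, 2 fell and the median was -0.204. Herpud1, of the pathway that degrades proteins of the endoplasmic reticulum, had 345, 305 and 311 at 2 h, against 241, 146 and 198 at 0 h and changed by 0.74 ± 0.14 (limma, adjusted p = 0.00186). The chaperone gene Hyou1 had 1206, 1149 and 1323 at 2 h, against 1648, 1710.2 and 1798 at 0 h and changed by -0.49 ± 0.09 (adjusted p = 0.00212). Dnajc3, a cochaperone (-0.38 ± 0.11, adjusted p = 0.0467), did not pass without 2 h replicate 1, 2 or 3 or 0 h replicate 2 or 3 (adjusted p = 0.0643 to 0.198). Of 20 heat shock genes 2 fell (10% called), Hsph1 (-0.64 ± 0.16, adjusted p = 0.0179) and Chordc1 (-0.43 ± 0.12, adjusted p = 0.0286). Hsph1 did not pass without 2 h replicate 2 or 3 or 0 h replicate 2 or 3 (adjusted p = 0.0639 to 0.0918), nor Chordc1 without 2 h replicate 2 or 3 or 0 h replicate 2 or 3 (adjusted p = 0.0606 to 0.121). Of 19 p53 targets 3 rose (15.8% called, median 0.0991): Phlda3 (0.73 ± 0.12) and the death gene Pmaip1 (0.68 ± 0.14), with limma's adjusted p at 0.000311 and 0.00361, and Sesn1 (0.59 ± 0.14, adjusted p = 0.00952), which did not pass without 0 h replicate 2 or 3 (adjusted p = 0.0778 to 0.0936).

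Among lists of macrophage function, 6.45% of phagocytic, 10.7% of lysosome and 19% of disease-associated microglia genes were called, against 4.75% of all genes. Of 31 phagocytic receptors and uptake genes 2 rose, the Fc receptor genes Fcgr1 (0.55 ± 0.12, adjusted p = 0.00475) and Fcgr4 (0.57 ± 0.14, adjusted p = 0.0178). Fcgr1 did not pass without 0 h replicate 2 (adjusted p = 0.051), nor Fcgr4 without 2 h replicate 2 or 3 or 0 h replicate 2 or 3 (adjusted p = 0.0535 to 0.103). Of 28 lysosome genes 2 rose and 1 fell (median 0.0976), with the protease gene Ctsh at 1685, 2092 and 2061 at 2 h, against 1422, 1435 and 1416 at 0 h, a change of 0.44 ± 0.09 (limma, adjusted p = 0.00434). Of 21 disease-associated microglia genes 2 rose and 2 fell (median 0.124). Clec7a, the dectin 1 receptor, had 5846, 6957 and 6688 at 2 h, against 4656, 4169 and 4003 at 0 h, a change of 0.60 ± 0.13 (limma, adjusted p = 0.00568). Csf1 fell, as given above. The protease inhibitor gene Cst7 (0.77 ± 0.20, adjusted p = 0.0215) did not pass without 2 h replicate 2 or 0 h replicate 2 or 3 (adjusted p = 0.058 to 0.125). Gpnmb, a transmembrane glycoprotein (-0.45 ± 0.12, adjusted p = 0.0267), did not pass without 2 h replicate 1 or 2 or 0 h replicate 2 or 3 (adjusted p = 0.0514 to 0.16). Trem2, the lipid receptor upstream of this state, did not pass (14590.3, 23493 and 17655 at 2 h, against 15827, 12617 and 13290.1 at 0 h; 0.40 ± 0.15, limma, adjusted p = 0.127). Of 30 cell cycle and replication genes none was called by limma (median -0.085), 4 had an unadjusted p under 0.05, and voom called 2 lower. Of 24 oxidative phosphorylation genes none was called by limma with all libraries or by voom (median 0.163), with 6 at an unadjusted p under 0.05. Array weights called 8 of them higher, and limma called 4 without 2 h replicate 1 (median 0.285) and 1 without 0 h replicate 1. The median was 0.0627 without 2 h replicate 2. Of 16 lineage transcription factors 2 rose, Irf8 (0.36 ± 0.10, adjusted p = 0.0425) and Stat3 (0.29 ± 0.09, adjusted p = 0.0468). Irf8 did not pass without 2 h replicate 1, 2 or 3 or 0 h replicate 2 or 3 (adjusted p = 0.0753 to 0.224), nor Stat3 without 2 h replicate 1 or 3 or 0 h replicate 1, 2 or 3 (adjusted p = 0.0756 to 0.17). Plau, the urokinase gene, had 10391, 11204 and 9153 at 2 h, against 6616, 4651 and 4583 at 0 h, a change of 0.97 ± 0.16 (limma, adjusted p = 0.000552).

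**Figure D3:**
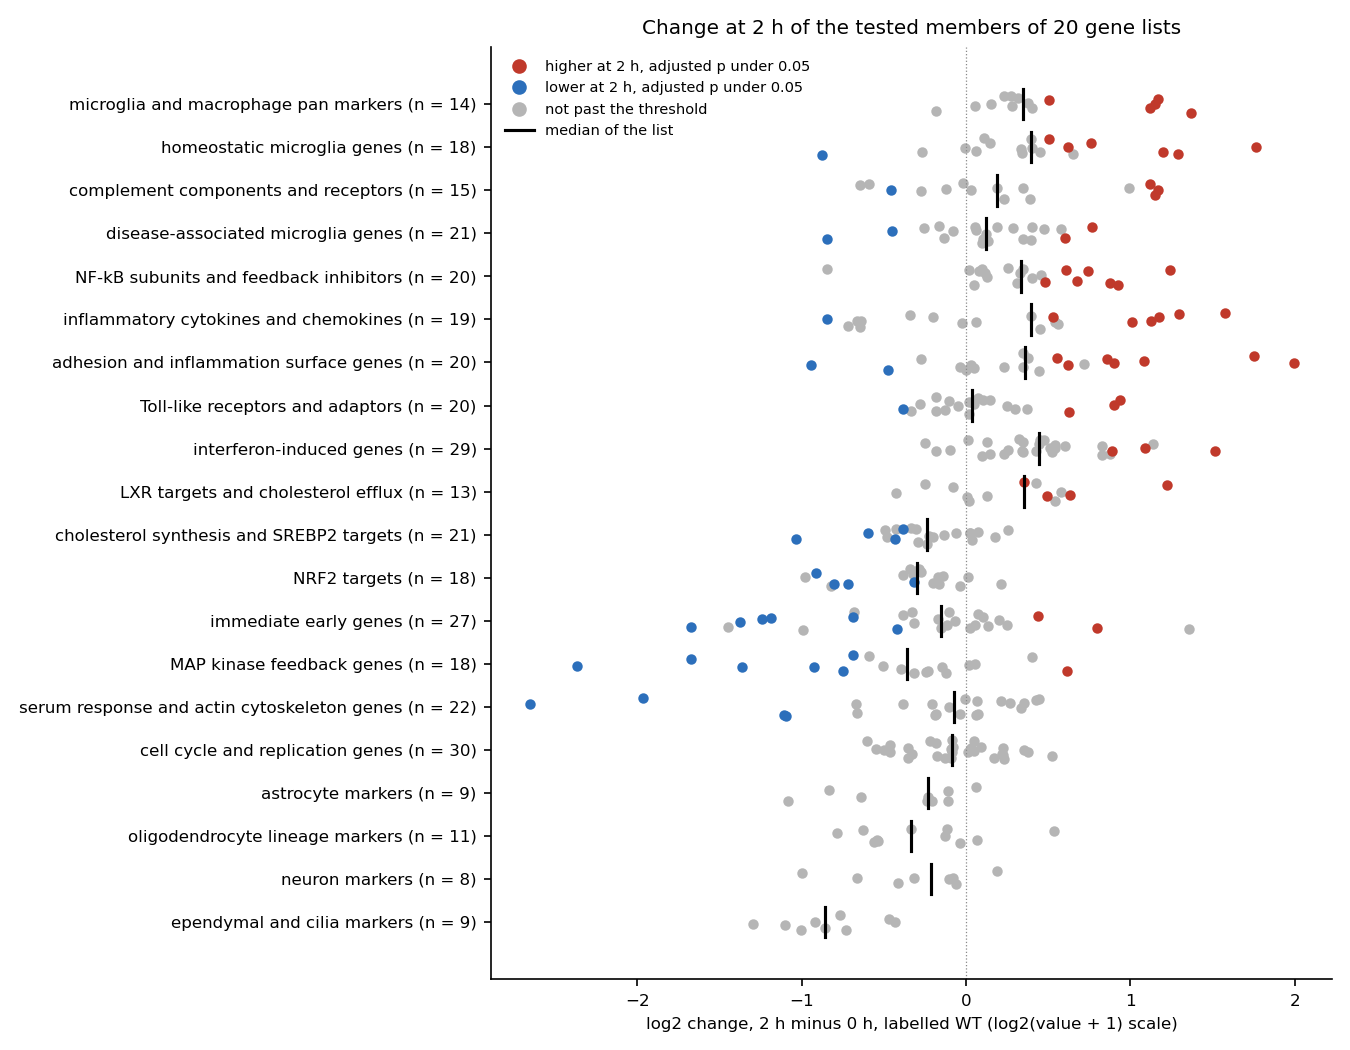
Log2 change at 2 h minus 0 h (x axis) of the tested members of 20 gene lists (rows), in libraries labelled WT. Points are genes, red where higher and blue where lower with an adjusted p under 0.05, and black lines are list medians. Among these 20 lists the medians are highest for interferon-induced genes (0.442) and homeostatic microglia genes (0.398), and lowest for ependymal and cilia markers (-0.857) and MAP kinase feedback genes (-0.356). Some lists not drawn had higher medians, among them MHC class II and costimulation genes (0.628) and MHC class I genes (0.449).

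Ribosomal protein genes, which share sequence with many processed pseudogenes and are uncertain for that reason, depended on several libraries. Of 77 tested, 23 rose and none fell (median 0.458), against 2.59% of all genes that rose, and none kept its call without each library. None rose without 2 h replicate 2 (median 0.286) or 0 h replicate 2 (median 0.371), 1 without 0 h replicate 3 and 4 without 2 h replicate 3, against 56 without 0 h replicate 1 and 75 without 2 h replicate 1. They held 3.21%, 4.88% and 3.93% of the normalised reads in the 2 h libraries, against 3.37%, 2.69% and 2.88% in the 0 h libraries, so 2 h replicates 2 and 3 lay above every 0 h library and 2 h replicate 1 did not. The library with the highest share, 2 h replicate 2, was tilted towards short genes: the fifth of genes with the shortest transcripts lay at 0.245 and the fifth with the longest at -0.259 (median log2 deviation from the mean of the 6 libraries). For the shortest genes the other 5 libraries lay between -0.124 and 0.0696. Called genes differed in length, with a median transcript length of 3328 bases for increases and 5777 for decreases, against 4529 for all tested. Among the shortest genes so defined 119 rose and 30 fell, and among the longest 22 rose and 77 fell. Of all 13722 genes tested 356 rose (2.59%) and 296 fell (2.16%), and 13612 had a known length. The median change at 2 h in the WT label was 0.109 for the shortest and -0.114 for the longest genes. In the PD-1 KO label these medians were -0.0127 and 0.0343. With the trend on length taken out of each library, an alternative added after the data were seen, 864 genes passed, 434 higher and 430 lower.

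**Figure D4:**
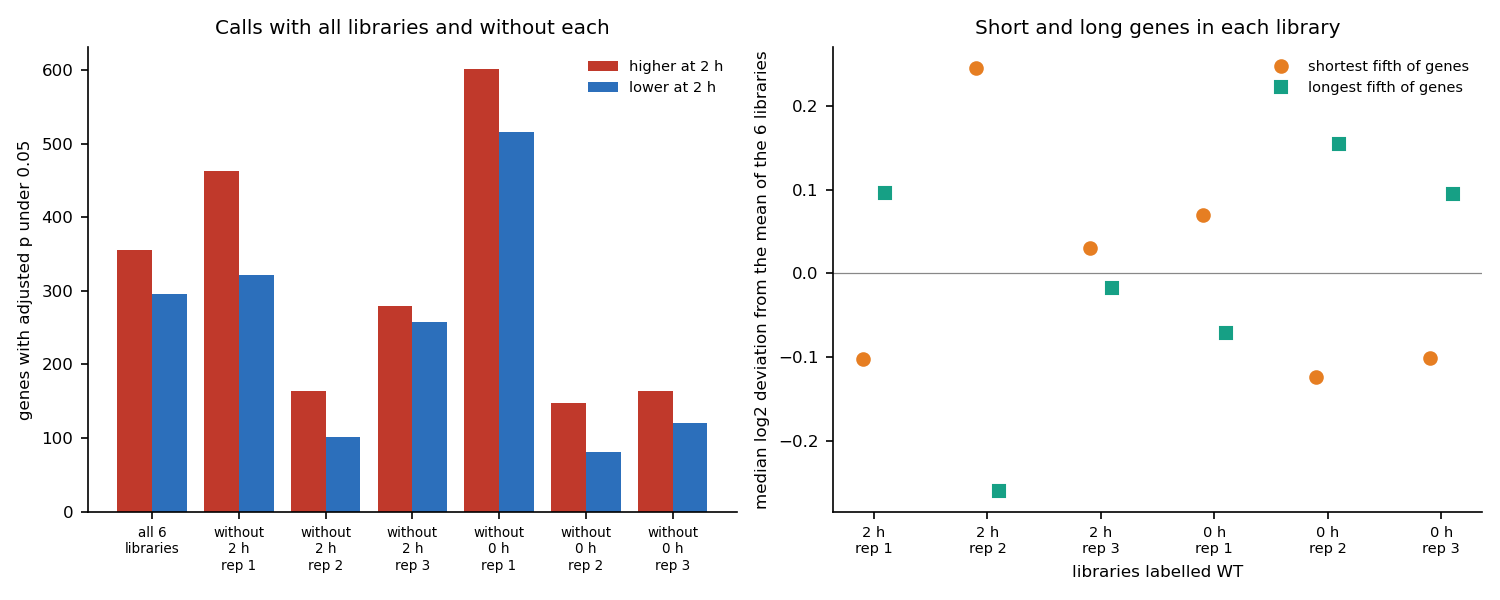
Left, genes with an adjusted p under 0.05 that were higher (red) or lower (blue) at 2 h, with all 6 libraries labelled WT and without each in turn. Right, median log2 deviation from the mean of the 6 libraries for the fifth of genes with the shortest and the fifth with the longest transcripts in each library. The calls range from 229 without 0 h replicate 2 to 1116 without 0 h replicate 1, and 2 h replicate 2 lies at 0.245 for short and at -0.259 for long genes.

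The same interval was compared in the libraries labelled PD-1 KO, which share no library with those labelled WT. Under that label 87 genes (0.634%) changed at 2 h, 49 higher (0.357%) and 38 lower (0.277%). The change in the WT label minus the change in the PD-1 KO label passed limma in 101 genes (0.736%), 54 higher and 47 lower. Of these, 88 were among the 652. The difference contains the change that defined the 652, from the same 6 libraries, so this overlap is partly built in. Without WT-labelled 0 h replicate 2, 15 differences passed. For the 356 genes that rose in the WT label, the median change in the PD-1 KO label was only 0.037. There 23 of them were called higher, against 0.357% of all genes. For the 296 that fell in the WT label, the median change in the PD-1 KO label was only -0.0373. There 20 of them were called lower, against 0.277% of all genes. None was called in the opposite direction. The Pdcd1 values go against the genotype labels, so these differences are between labels and carry no direction for the genotype. The summed normalised read count of astrocyte markers was 1270 to 3867 under the WT label and 11330 to 28480 under the PD-1 KO label, and the part of this difference in the results was not tested.

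Of the immediate early and MAP kinase feedback genes, Fos, Fosl2, Spry4 and Dusp5 fell in both labels. In the PD-1 KO label 7 of 27 immediate early genes were called lower and 1 higher (median -0.176). Of 18 MAP kinase feedback genes 5 were called lower there and 0 higher (median -0.363). The shares of all genes were 0.277% lower and 0.357% higher. Fos changed by -1.19 ± 0.15 in the WT label and -1.45 ± 0.15 in the PD-1 KO label, where it had normalised read counts of 1018, 1085 and 1097 at 2 h, against 3055, 3358 and 2389 at 0 h (limma, adjusted p = 1.53e-06). Spry4 changed by -2.37 ± 0.35 in the WT label and -2.22 ± 0.35 in the PD-1 KO label. Dusp5 changed by -1.67 ± 0.27 in the WT label and -1.76 ± 0.27 in the PD-1 KO label, and Fosl2 by -1.24 ± 0.14 in the WT label and -0.90 ± 0.14 in the PD-1 KO label. All 3 were called in the PD-1 KO label too (limma, adjusted p = 0.000696, 0.000575 and 0.000656). Their differences between labels did not pass: 0.26 ± 0.22 for Fos, -0.15 ± 0.50 for Spry4, 0.09 ± 0.39 for Dusp5 and -0.34 ± 0.20 for Fosl2 (adjusted p = 0.644, 0.929, 0.945 and 0.477). Among the genes that rose, Ptger4 changed by 1.41 ± 0.12 in the WT label and 1.04 ± 0.12 in the PD-1 KO label, and Tnf by 1.17 ± 0.15 in the WT label and 0.77 ± 0.15 in the PD-1 KO label. Both passed limma in the PD-1 KO label as well (adjusted p = 2.64e-06 and 0.00547), with differences of 0.37 ± 0.17 and 0.40 ± 0.21 that did not pass (adjusted p = 0.344 and 0.42). The lists as a whole showed less in the PD-1 KO label. There 0 of 20 NF-kB genes were called (median 0.0778). Of 19 cytokines and chemokines 1 was called higher and 1 lower (median -0.0767), and of 20 surface genes 0 higher and 2 lower (median -0.121).

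Several microglial genes differed between the labels. Cx3cr1 changed by 1.76 ± 0.19 in the WT label and -0.10 ± 0.19 in the PD-1 KO label, where it had normalised read counts of 1991, 1514 and 1768 at 2 h, against 1413, 1729 and 2701 at 0 h. The difference was 1.87 ± 0.26 (limma, adjusted p = 0.000722). For Cd52 the difference was 1.6 ± 0.24, for Aif1 1.45 ± 0.27, for C1qa 1.34 ± 0.25 and for Fcrls 1.32 ± 0.26 (limma, adjusted p = 0.000956, 0.01, 0.0109 and 0.0121). Gpr34 (0.96 ± 0.32, adjusted p = 0.15) and Csf1r (0.59 ± 0.16, adjusted p = 0.0815) did not pass. The differences of Cx3cr1 and Cd52 passed without each of the 12 libraries compared. That of Aif1 did not pass without WT-labelled 0 h replicate 2 (adjusted p = 0.0502). That of C1qa did not pass without WT-labelled 0 h replicate 2 or PD-1 KO-labelled 2 h replicate 2 (adjusted p = 0.0507 to 0.053), nor that of Fcrls without WT-labelled 0 h replicate 2 or PD-1 KO-labelled 2 h replicate 2 (adjusted p = 0.0508 to 0.0616).

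The falls of Gclm and of some matrix and contractile genes also differed between labels. Gclm changed by -0.91 ± 0.11 in the WT label and 0.22 ± 0.11 in the PD-1 KO label, a difference of -1.13 ± 0.16 (limma, adjusted p = 0.000722). Acta2 differed by -1.84 ± 0.34, Tnc by -2.05 ± 0.42, Ctgf by -2.09 ± 0.48 and Cyr61 by -1.69 ± 0.40 (limma, adjusted p = 0.01, 0.0181, 0.0334 and 0.0404). Of these, the difference of Gclm passed without each of the 12 libraries, and that of Acta2 did not without WT-labelled 0 h replicate 2 (adjusted p = 0.0502). For Tnc the difference did not pass without WT-labelled 2 h replicate 2 or WT-labelled 0 h replicate 2 or PD-1 KO-labelled 2 h replicate 2 or PD-1 KO-labelled 0 h replicate 3 (adjusted p = 0.0675 to 0.0911). For Ctgf it did not pass without WT-labelled 2 h replicate 2 or WT-labelled 0 h replicate 2 or 3 or PD-1 KO-labelled 2 h replicate 2 or 3 or PD-1 KO-labelled 0 h replicate 2 or 3 (adjusted p = 0.0517 to 0.14), nor for Cyr61 without WT-labelled 2 h replicate 1 or 2 or WT-labelled 0 h replicate 2 or 3 or PD-1 KO-labelled 2 h replicate 2 or 3 or PD-1 KO-labelled 0 h replicate 2 or 3 (adjusted p = 0.0637 to 0.157). Il1b, which did not pass in the WT label, fell in the PD-1 KO label, with 37.6, 27.1 and 18.4 at 2 h, against 97.2, 164 and 165 at 0 h (-2.33 ± 0.33, limma, adjusted p = 0.000162). Its difference was 2.87 ± 0.47 (adjusted p = 0.00308). Cxcl16 (1.25 ± 0.21) and Ikbke (1.11 ± 0.21) differed in the direction of a higher change in the WT label (limma, adjusted p = 0.00308 and 0.0109), and like Il1b they passed without each of the 12 libraries. With voom the differences of Il1b and Ikbke did not pass (adjusted p = 0.0651 and 0.0595). Igfbp5, Igfbp3 and Thbs1 had no difference that passed (limma, adjusted p = 0.0751, 0.181 and 0.256). Cd274, which encodes the PD-1 ligand PD-L1, had 464, 396 and 447 at 2 h, against 334, 406 and 441 at 0 h in the WT label and did not pass (0.15 ± 0.13, limma, adjusted p = 0.565).

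**Figure D5:**
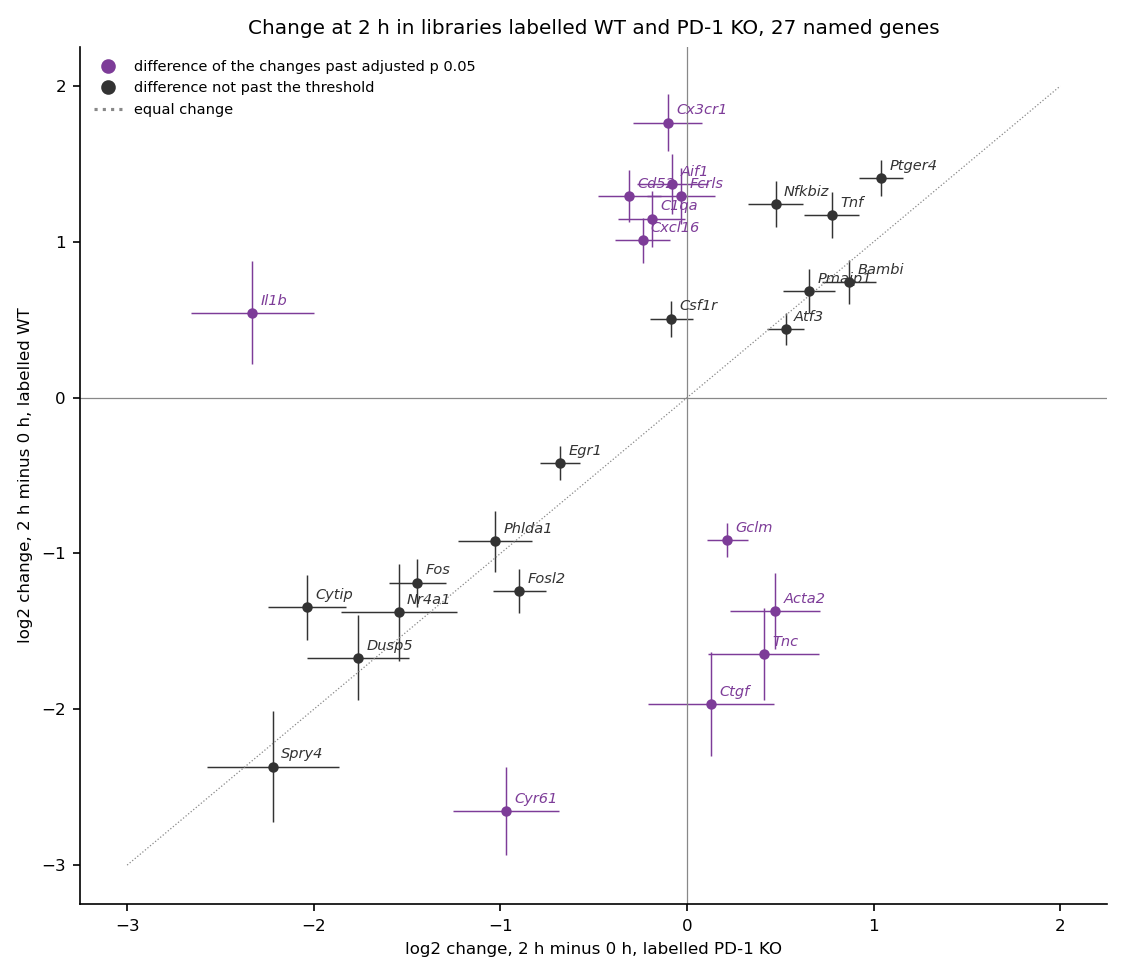
Log2 change at 2 h minus 0 h in libraries labelled PD-1 KO (x axis) and labelled WT (y axis) for 27 named genes, with standard errors. Purple genes differ between labels with an adjusted p under 0.05, black genes do not pass, and the dotted line marks equal change. Fos, Spry4 and Dusp5 lie near the line, and Cx3cr1 lies at 1.76 in the WT label and -0.10 in the PD-1 KO label.

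The WT-labelled libraries at 2 h with amyloid-beta and at 8 h without it were set against the same 0 h libraries, so their changes are not independent of those above and are given side by side only. With amyloid-beta at 2 h 984 genes (7.17%) passed, 543 higher (3.96%) and 441 lower (3.21%). At 8 h 830 (6.05%) passed, 411 higher (3%) and 419 lower (3.05%). Cx3cr1 changed by 1.76 ± 0.19 at 2 h, 1.77 ± 0.19 at 2 h with amyloid-beta and 1.16 ± 0.19 at 8 h. Tnf changed by 1.17 ± 0.15, 1.37 ± 0.15 and 1.69 ± 0.15 in the same order, and Icam1 by 0.86 ± 0.11, 0.94 ± 0.11 and 1.56 ± 0.11. Fos was at -1.19 ± 0.15, -0.94 ± 0.15 and 0.14 ± 0.15, Spry4 at -2.37 ± 0.35, -2.50 ± 0.35 and -0.91 ± 0.35, and Cyr61 at -2.66 ± 0.28, -2.55 ± 0.28 and -1.24 ± 0.28. Hmox1 stood at -0.80 ± 0.15, -0.58 ± 0.15 and -0.51 ± 0.15. The value of Fos at 8 h was thus near 0, and those of Tnf and Icam1 were larger at 8 h than at 2 h, differences that were not tested. The library numbers of the 8 h group do not continue those of the 0 h and 2 h groups. The labels do not say whether the 8 h libraries were prepared apart, which could not be told apart from time. Gpr34 changed by 1.2 ± 0.22 at 2 h, 1.15 ± 0.22 at 2 h with amyloid-beta and 0.09 ± 0.22 at 8 h.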

How the data were processed

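RNA from primary mouse microglia was sequenced after Illumina TruSeq library preparation, per the labels' protocols. For each gene in each library the deposited table gives a signal value, which the authors scaled by library: its steps show whole counts over 1 size factor for the library, with 1 as the lowest value. The tools named in the submitters' processing notes, with no roles, are DESeq2, R 3.0.2, Partek 6.6 and HISAT 0.1.5, with the mm10 build; the counting program and annotation are not given in the sources used here. Each library's smallest step gave the reads behind its values, whole within 0.05 in 100% of values up to 5000 reads. The floor hides up to 4 reads in the 6 libraries, so no count model was fitted. Totals of 4989566 to 48509985 reads set the precision, and low genes are the least certain.

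Values were analysed as log2(value + 1), a scale that understates changes of low genes. Genes reaching 10 in at least 3 of 30 libraries (13722) entered 1 fit of 10 group means in limma 3.58.1 (R 4.3.3), with an intensity trend, 20 residual degrees of freedom and Benjamini-Hochberg adjustment at 0.05. This fit takes the spread from all groups. Simulated data for the 2 h comparison (13736 genes) gave 75 of 100 changes of 2-fold, 99 of 100 of 4-fold and 20 false calls among 194. The simulation used the same dispersion (0.03) for every gene and changed only genes above a set level at 0 h. It held no length tilt of single libraries and no library that stood apart, so recovery in the real data may differ.

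The members and 39 gene lists were chosen with earlier results of these data known. Genes were named by rule: up to 14 each of the strongest increases and decreases among called genes above the median level without overlap, up to 5 members per list, up to 6 each way for the difference between labels, and 23 set genes. Other genes were named after their values were seen, and 2 that the rule named are not reported here. Alternatives were TMM factors, quantile normalization, pseudocounts 0 and 10, a filter at 50 or none, voom on recovered reads, array weights, robust empirical Bayes, no trend, a fold minimum of 1.2, only the groups compared, and each library left out. Removing the length trend was added after the data were seen. With voom, libraries were scaled by their total reads and not by the authors' size factors. The GRCm38 annotation placed 13677 genes (99.2%), 415 through an older symbol. Promoters are RefSeq windows on GRCm38.p6, matched by symbol for 10753 of the genes tested. Figures used matplotlib 3.10.9.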

Additional observations from a re-analysis of the deposited data

Results flagged for a closer look

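The change at 2 h in the WT label minus that in the PD-1 KO label passed limma for several named genes, and each such difference is given here with its standard error. Pdcd1 goes against the genotype labels, so no genotype direction is drawn. Astrocyte marker sums were 1270 to 3867 under the WT label and 11330 to 28480 under the PD-1 KO label, and their part was not tested. Groups of 3 libraries were not tested for single distant libraries.

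Positive differences, with a higher change in the WT label, were found in genes of microglia and of inflammation. They were 1.87 ± 0.26 for Cx3cr1, 1.6 ± 0.24 for Cd52, 1.45 ± 0.27 for Aif1, 1.34 ± 0.25 for C1qa, 1.25 ± 0.25 for C1qb, 1.25 ± 0.26 for C1qc, 1.32 ± 0.26 for Fcrls and 0.81 ± 0.18 for Selplg. Further differences were 2.87 ± 0.47 for Il1b, 1.25 ± 0.21 for Cxcl16, 1.11 ± 0.21 for Ikbke, 0.67 ± 0.16 for Nfkbia, 0.96 ± 0.20 for Fcgr4, 1.19 ± 0.27 for Cd72, 1.19 ± 0.28 for Folr2, 1.33 ± 0.29 for Fgd2 and 1.29 ± 0.21 for Tmem176a. Among genes named for the size of the difference, Tnfsf13, a TNF family ligand also known as APRIL, differed by 2.98 ± 0.70, and by 1.97 without PD-1 KO-labelled 2 h replicate 3, which lay at the floor. Under the WT label it had 68.6, 87.4 and 42.1 at 2 h, against 62.9, 28.7 and 28.1 at 0 h, and under the PD-1 KO label 19.8, 11.5 and 1 at 2 h, against 46.7, 31.3 and 33.1 at 0 h. Zmynd15 differed by 1.83 ± 0.42 and Dmrtb1 by 1.64 ± 0.39. The limma adjusted p of these 3 differences was 0.0377, 0.0347 and 0.0404.

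Negative differences were found in matrix, contractile and antioxidant genes, among others. They were -1.84 ± 0.34 for Acta2, -2.05 ± 0.42 for Tnc, -2.09 ± 0.48 for Ctgf, -1.69 ± 0.40 for Cyr61, -2.18 ± 0.43 for Cnn1, -1.41 ± 0.34 for Cav1, -1.57 ± 0.32 for Fstl1, -0.97 ± 0.23 for Flrt2 and -1.30 ± 0.32 for Vcam1. Others were -1.13 ± 0.16 for Gclm, -0.50 ± 0.11 for Txnrd1, -1.10 ± 0.26 for Hmga2 and -1.48 ± 0.35 for Wwc1. Among genes named for size, Plin4, a lipid droplet protein, differed by -3.86 ± 0.87. Under the WT label it had 1, 2.03 and 4.21 at 2 h, against 9.17, 28.7 and 24.8 at 0 h, and under the PD-1 KO label 7.91, 13.1 and 16.4 at 2 h, against 21.9, 2.84 and 1 at 0 h. Kcne1l, a potassium channel subunit, differed by -2.80 ± 0.66, the phosphodiesterase gene Pde1a by -2.60 ± 0.45, the endocytic receptor gene Lrp2 by -2.59 ± 0.46 and Prom1, a protein of cell protrusions, by -2.19 ± 0.49 (limma, adjusted p = 0.0322, 0.0387, 0.005, 0.00653 and 0.0321).

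Many of these differences ended when 1 of the 12 libraries was left out. Those of Cd52, Cx3cr1, Cxcl16, Gclm, Ikbke, Il1b, Lrp2, Pde1a and Tmem176a passed without each of them. The differences that ended without WT-labelled 2 h replicate 1 were those of Cyr61 and Dmrtb1 (adjusted p = 0.0573 to 0.0637). Without WT-labelled 2 h replicate 2 they were those of C1qb, C1qc, Cav1, Cd72, Ctgf, Cyr61, Dmrtb1, Fcgr4, Flrt2, Folr2, Fstl1, Hmga2, Kcne1l, Nfkbia, Plin4, Prom1, Tnc, Tnfsf13, Txnrd1, Vcam1, Wwc1 and Zmynd15 (adjusted p = 0.0539 to 0.152), and without WT-labelled 2 h replicate 3 those of Cd72, Folr2, Hmga2, Kcne1l, Nfkbia, Prom1 and Selplg (adjusted p = 0.0594 to 0.0966). Without WT-labelled 0 h replicate 2 the differences that ended were those of Acta2, Aif1, C1qa, C1qb, C1qc, Cav1, Cd72, Cnn1, Ctgf, Cyr61, Dmrtb1, Fcgr4, Fcrls, Fgd2, Flrt2, Folr2, Fstl1, Hmga2, Kcne1l, Nfkbia, Plin4, Prom1, Selplg, Tnc, Tnfsf13, Txnrd1, Vcam1, Wwc1 and Zmynd15 (adjusted p = 0.0502 to 0.167), and without WT-labelled 0 h replicate 3 those of C1qb, C1qc, Cav1, Cd72, Ctgf, Cyr61, Dmrtb1, Fgd2, Flrt2, Folr2, Hmga2, Kcne1l, Nfkbia, Plin4, Prom1, Selplg, Tnfsf13, Txnrd1 and Zmynd15 (adjusted p = 0.0515 to 0.13). Without PD-1 KO-labelled 2 h replicate 2 they were those of C1qa, C1qb, C1qc, Cav1, Cd72, Cnn1, Ctgf, Cyr61, Dmrtb1, Fcgr4, Fcrls, Fgd2, Flrt2, Folr2, Fstl1, Hmga2, Kcne1l, Nfkbia, Plin4, Prom1, Selplg, Tnc, Tnfsf13, Txnrd1, Vcam1, Wwc1 and Zmynd15 (adjusted p = 0.053 to 0.179). Without PD-1 KO-labelled 2 h replicate 3 they were those of C1qc, Cav1, Cd72, Ctgf, Cyr61, Dmrtb1, Fcgr4, Fgd2, Flrt2, Folr2, Hmga2, Kcne1l, Nfkbia, Plin4, Prom1, Selplg, Tnfsf13, Txnrd1, Vcam1, Wwc1 and Zmynd15 (adjusted p = 0.06 to 0.143). Without PD-1 KO-labelled 0 h replicate 2 they were those of Cav1, Cd72, Ctgf, Cyr61, Dmrtb1, Fgd2, Flrt2, Folr2, Fstl1, Hmga2, Kcne1l, Nfkbia, Plin4, Prom1, Selplg, Tnfsf13, Vcam1, Wwc1 and Zmynd15 (adjusted p = 0.0575 to 0.109). Without PD-1 KO-labelled 0 h replicate 3 they were those of C1qb, C1qc, Cav1, Cd72, Ctgf, Cyr61, Dmrtb1, Fcgr4, Fgd2, Flrt2, Folr2, Fstl1, Hmga2, Kcne1l, Nfkbia, Plin4, Prom1, Selplg, Tnc, Tnfsf13, Txnrd1, Vcam1, Wwc1 and Zmynd15 (adjusted p = 0.0836 to 0.174). Leaving out replicate 1 of the WT-labelled 0 h group or of either PD-1 KO-labelled group ended none of the differences named here. Voom on the recovered reads ended those of Fgd2, Folr2, Ikbke, Il1b, Nfkbia, Prom1, Tnfsf13, Wwc1 and Zmynd15 (adjusted p = 0.0595 to 0.145).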

How the results depend on the processing

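The count of 652 genes was 32 when only the 6 libraries were fitted, 92 with a fold minimum of 1.2 and 2434 with array weights. With 1 library left out it lay between 229 and 1116: 229 without 0 h replicate 2, 265 without 2 h replicate 2, 284 without 0 h replicate 3 and 1116 without 0 h replicate 1. The other alternatives gave 542 to 864. The share of increases, 54.6%, was 40.1% with voom on recovered reads (311 higher, 464 lower) and 48.4% with TMM factors (290 higher, 309 lower). Voom also changed the scaling, since it used the total reads of each library in place of the authors' size factors. The part of this scaling in the voom results was not tested. The 101 differences between labels became 36 with only the groups compared, 38 without trend, 12 with the fold minimum, 1327 with array weights and 186 with the length trend removed, and 15 to 381 without 1 library each. Of these, 15 came without 0 h replicate 2 of the WT label and 381 without 0 h replicate 1 of the PD-1 KO label. With voom, 34 of 100 were higher, against 54 of 101.

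Of 159 genes named and tested, 131 were called at 2 h. None of the called genes changed direction under any alternative. The fit of the 6 libraries ended 111 calls, the fold minimum 77, voom 21, removal of the length trend 7 and quantile normalization 7, and 57 calls ended without at least 1 library. The calls that voom ended were those of Bcl3, Ccl5, Cd40, Cd69, Cd74, Cst7, Cxcl2, Dnajc3, Fpr1, H2-Eb1, Hlf, Il1a, Mlc1, Myl9, Nfkbie, P2ry12, Prom1, Spry2, Stat3, Tlr9 and Zbp1 (adjusted p = 0.0508 to 0.434). Reversals occurred in genes that were not called: Cd68 turned to -0.0136 with the length trend removed, and Cxcl10 to -0.0874 with voom and -0.0333 with the length trend removed. Gfap turned to 0.00832 with array weights. Without single libraries Cxcl10 lay between -0.197 and 0.268, Hmgcs1 between -0.173 and 0.0626 and Gfap between -0.448 and 0.0523. The cause of these shifts was not tested.

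The planned edgeR and DESeq2 alternatives were not run, because the floor hides low counts. No paired analysis was possible because the labels give running library numbers and no replicate numbers shared between groups. With 3 libraries a group, 75 of 100 changes of 2-fold were recovered in simulated data, which held no length tilt and no library that stood apart. Differences in genes of a few reads, such as H2-Eb1 at 0 h, were not measurable below the floor.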

Other observations

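Genes outside the lists of the main text also changed at 2 h. Those of antigen presentation and iron handling were chosen after their values were seen. Antigen presentation by MHC class I was higher in part. H2-K1, a class I heavy chain with near-identical relatives and therefore uncertain, had 7596, 9527 and 8619 at 2 h, against 6109, 5446 and 5693 at 0 h (0.57 ± 0.11, limma, adjusted p = 0.00301). The peptide transporter gene Tap1 had 1002, 997 and 1085 at 2 h, against 752, 652 and 668 at 0 h (0.57 ± 0.12, adjusted p = 0.0038). Psmb9, an immunoproteasome subunit, changed by 0.83 ± 0.19 (adjusted p = 0.00769) but did not pass without 2 h replicate 2 or 0 h replicate 2 (adjusted p = 0.0702 to 0.0881). B2m, the light chain, changed by 0.45 ± 0.12 (adjusted p = 0.0279) but did not pass without 2 h replicate 2 or 3 or 0 h replicate 2 or 3 (adjusted p = 0.0849 to 0.141). Surface and signalling genes of myeloid cells were among the increases. Slamf9, an immune receptor of the SLAM family, changed by 1.37 ± 0.26, Cd72, a lectin-like inhibitory receptor, by 1.07 ± 0.19, and the MAP kinase kinase kinase gene Map3k8 by 0.98 ± 0.16 (limma, adjusted p = 0.00207, 0.000968 and 0.000578). The folate receptor gene Folr2 changed by 0.97 ± 0.20, Fgd2, an exchange factor of small GTPases, by 1.25 ± 0.20, and Tmem176a by 1.2 ± 0.15 (limma, adjusted p = 0.00349, 0.000385 and 9.79e-06).

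Iron genes changed beside Hmox1 in both directions. Slc40a1, the iron exporter ferroportin, had 3527, 3549 and 3848 at 2 h, against 5112, 5352 and 4981 at 0 h (-0.50 ± 0.10, limma, adjusted p = 0.00244). Steap3, a ferric reductase, had 211, 159 and 201 at 2 h, against 280.4, 332 and 335 at 0 h (-0.73 ± 0.13, adjusted p = 0.000747). The transferrin receptor gene Tfrc changed by -0.48 ± 0.11 (adjusted p = 0.01) but did not pass without 2 h replicate 2 or 0 h replicate 2 or 3 (adjusted p = 0.0539 to 0.0995). In the opposite direction, Ncoa4, the cargo receptor for ferritin breakdown, changed by 0.39 ± 0.10 (adjusted p = 0.0256) but did not pass without 2 h replicate 3 or 0 h replicate 2 or 3 (adjusted p = 0.102 to 0.124). Of the collagen genes, taken by symbol after the data were seen, 4 of 33 fell and none rose (median -0.316), against 2.16% of all genes that fell. None of these calls was kept without each library. The number was 0 without 2 h replicate 2 (median -0.194) or 0 h replicate 2 (median -0.191) and 1 without 0 h replicate 3. The median was -0.607 without 2 h replicate 3 and -0.508 without 0 h replicate 1. Quantile normalization called 1 collagen gene higher. Caveolin 1, encoded by Cav1, and calponin 1, encoded by Cnn1, changed by -1.21 ± 0.24 and -1.68 ± 0.30 (limma, adjusted p = 0.00261 and 0.00107). In the TGF-beta list 1 of 18 rose and 1 fell, against 2.59% and 2.16% of all genes: Bambi, a decoy receptor, had 298, 398 and 376 at 2 h, against 232, 195 and 209.9 at 0 h (0.74 ± 0.14, limma, adjusted p = 0.00221). Id3, an inhibitor of helix-loop-helix factors, had 73.3, 59.5 and 55.8 at 2 h, against 166, 146 and 124 at 0 h (-1.2 ± 0.25, adjusted p = 0.00483). Of 20 glucocorticoid-responsive and circadian genes 2 rose, against 2.59% of all genes, with the clock output gene Dbp at 163, 199 and 173 at 2 h, against 126, 82 and 90.9 at 0 h (0.85 ± 0.16, limma, adjusted p = 0.00219). Its relative Hlf changed by 1.31 ± 0.39 (adjusted p = 0.0487) and did not pass without any 1 of the 6 libraries (adjusted p = 0.0548 to 0.261). Ccnd2, cyclin D2, had 579.6, 310.3 and 574 at 2 h, against 688, 1187 and 901 at 0 h (-0.94 ± 0.19, limma, adjusted p = 0.0033) and did not pass without 0 h replicate 2 (adjusted p = 0.051).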
